A study of Rattus norvegicus with 12 samples.

Results

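INS1E is a rat insulinoma cell line that makes and secretes insulin and is used as a model of the pancreatic beta cell. The comparison described here set an INS1E clone that carries human islet amyloid polypeptide (hIAPP) after stable transfection against an INS1E clone stably transfected with the empty vector pcDNA3, the control. It took 4 of the 12 deposited samples, the gene-level values of 2 hIAPP arrays and 2 control arrays, each lettered a and b. The other 8 samples were the gene-level values of a clone transfected with rat IAPP (rIAPP, 2 arrays) and the exon-level values of the same 6 arrays. All genes of the gene-level table with exactly 1 gene symbol were included, 18166 of them after the brightest of 36685 transcript clusters was kept for each symbol. The rIAPP arrays entered the fit for its estimate of the spread, and they also served to ask whether a difference from control separated hIAPP from another transfected clone. All clones were grown under the same conditions, with 11.1 mM glucose, 10% serum, 200 µg/mL geneticin for selection and 50 µM beta-mercaptoethanol, and were collected after 3 days. Each group was 1 clone, so the transgene and the clone that carries it cannot be told apart. The labels do not say whether a and b were separate cultures, what promoter drove the transgene or how many copies entered the genome, and all p-values measure only the spread between arrays of 1 clone.

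IAPP, also called amylin, is a small peptide hormone that beta cells process from a precursor in the endoplasmic reticulum (ER) and Golgi, pack into secretory granules with insulin and release with it. The human peptide assembles into amyloid fibrils, while the rat peptide carries proline substitutions and does not. A beta cell folds large amounts of prohormone in its ER, and when unfolded protein collects there, the sensors of the unfolded protein response switch on chaperones, degradation factors and lipid synthesis.

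Iapp, the endogenous rat gene, stood at 13.79 and 13.82 in the hIAPP samples, against 13.76 and 13.72 in the control samples (all levels are log2 values as deposited). The samples of the clones did not overlap, and the difference of 0.06 did not pass the test (SE 0.0469, adjusted p = 0.406; limma's moderated test with Benjamini-Hochberg adjustment over all genes, as for every adjusted p below). No transcript cluster was named for the human transgene, and whether the rat probes detect it was not tested. The cells carried beta-cell markers: all 12 of the beta-cell markers measured were at or above the median level of all genes. 1 of them rose and 5 fell (over all genes 10.1% were called higher and 8.93% lower), and their log2 levels summed to 150.4 and 151.0 in the hIAPP samples, against 153.0 and 152.4 in the control samples. Falls numbered 3 without control a. The single rise, in Kcnj11, was lost when any 1 of the 4 arrays was left out. Of the markers of other cells, those of other endocrine cells (12), acinar and ductal cells (19), fibroblasts and endothelium (13), leukocytes (18) and neurons and glia (12) reached the median level in 4, 2, 1, 1 and 5 cases. The endocrine markers Gcg, the glucagon gene, Gc and Etv1 were among the brightest genes of these cells, at the 99.98th, 99.85th and 98.86th percentile of level, and Gcg stood at 14.11 and 14.12 in the hIAPP samples, against 13.94 and 13.95 in the control samples. RMA values have no zero, so a marker at the floor of the array has no level of 0. Pearson's r across genes, which are no independent replicates, was 0.99867 between the hIAPP samples, 0.99884 between the control samples and 0.99338 to 0.99392 between the clones. The median SD between arrays of a clone was 0.0479 in hIAPP and 0.0406 in control.

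Differences between the clones were many and mostly small. Of the 18166 genes, 3462 (19.1%) passed the test, 1839 higher in hIAPP (10.1%) and 1623 lower (8.93%). With arrays centred on their medians 1690 of 3498 calls were higher (48.3%), so lower calls were then the more numerous. Of these calls, 963 differed by less than 0.25 on the log2 scale, 1789 by 0.25 to 0.5, 560 by 0.5 to 1, 133 by 1 to 2 and 17 by 2 or more, so 79.5% were under 0.5. Calls were also commoner among brighter genes: in 4 classes of about equal size by level, dimmest first, 4.10%, 16.0%, 30.7% and 25.5% of genes passed the test. Among the 9083 genes at or above the median level of all genes, 16.2% were higher and 11.9% lower, and these are the shares to hold beside a list whose members are mostly well expressed. The hIAPP and control samples did not overlap in 57.8% of all genes, called or not. Without control a the calls numbered 2001, and without control b 2245.

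**Figure D1:**
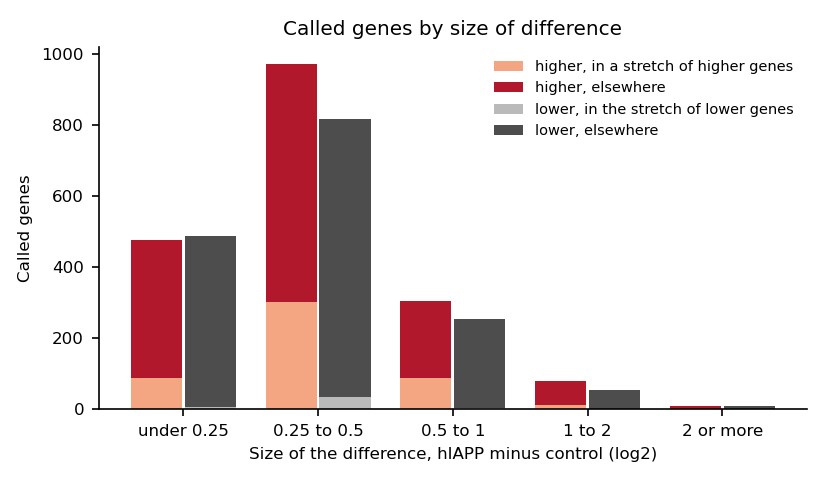
Number of called genes (vertical axis) by the size of the difference, hIAPP minus control, in log2 units (horizontal axis); red bars are genes higher in hIAPP and grey bars genes lower, with the pale part of each bar lying in a stretch of neighbouring genes that moved the same way. Most calls, 2752 of 3462, lie in the classes under 0.5.

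The hIAPP clone differed from the control along whole stretches of chromosomes. Genes were put in order along each chromosome, and the median difference was taken over 51 neighbouring genes at or above the median level. This running median reached 0.2 in size in 8 stretches of more than 20 genes, on chromosomes 4, 9, 14, 16 and 17, and stayed closer to 0 elsewhere. Chromosome 16 was shifted over its whole length: of its 493 genes, 217 were higher in hIAPP (44.0%) and 10 lower (2.03%). Its 275 genes that reached the median level had a median difference of 0.27, and 255 of them (92.7%) were positive. By letter, which the labels do not call a pairing, hIAPP a minus control a gave 0.26 and hIAPP b minus control b gave 0.27. The shift was thus of similar size in both. Against rIAPP the median over chromosome 16 was 0.18, and rIAPP minus control was 0.09.

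**Figure D2:**
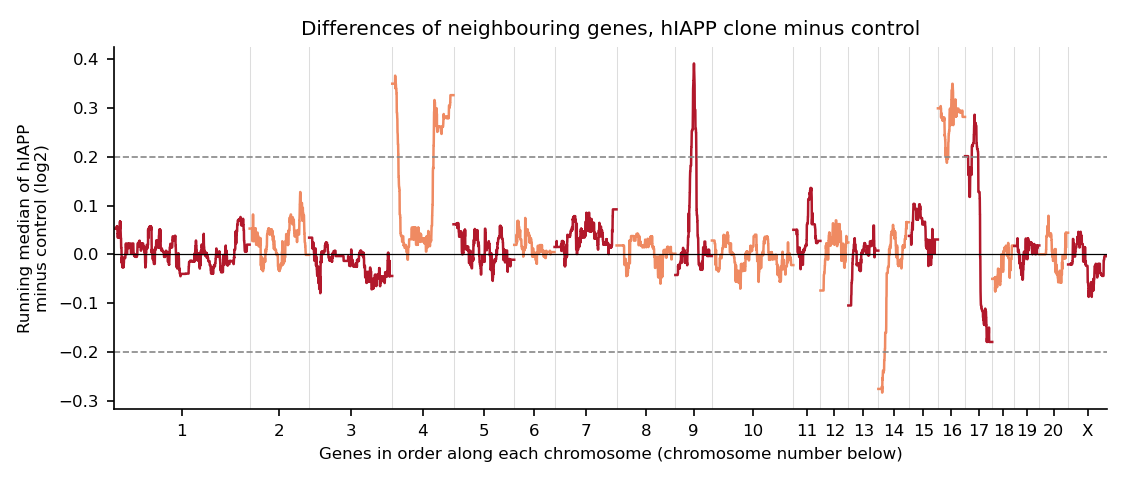
Running median of the difference, hIAPP minus control (vertical axis, log2), along the genes of each chromosome in order (horizontal axis, colours alternate by chromosome); dashed lines mark 0.2 in either direction. Chromosome 16 lies between 0.19 and 0.35 over its whole length, parts of chromosomes 4, 9 and 17 rise above the upper line, and the start of chromosome 14 lies below the lower line.

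The longest stretch held 365 genes of chromosome 4, from Il17rc to Rimklbl1, with 112 higher and 14 lower and a median difference of 0.29; the Iapp gene itself lies in it. A second stretch of chromosome 4, from Il6 to Bet1, held 112 genes, of which 57 were higher and 2 lower (median 0.35). On chromosome 9 the 92 genes from Pou3f3 to Ino80d had 46 higher and 4 lower (median 0.37). On chromosome 17 the 57 genes from Mfsd14b to Klhl3 had 18 higher and 1 lower (median 0.22), and the 117 genes from Cks2 to Mboat1 had 51 higher and 2 lower (median 0.27). The stretch from Cks2 to Mboat1 was also shifted against rIAPP, by 0.32, while rIAPP minus control was −0.03 there. The single stretch of lower values was on chromosome 14, where 45 of 116 genes from Tmed11 to Cxcl9 fell and 7 rose (median −0.28, and −0.35 against rIAPP).

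The stretches of higher values held 1202 genes, 6.62% of all, and 490 of the 1839 higher calls, or 26.6%. Outside all stretches 16848 genes remained, of which 1342 were higher (7.97%) and 1546 lower (9.18%), so that falls outnumbered rises there. With each gene centred on its neighbours, 39.1% of 3575 calls were higher, against 53.1% of the 3462 calls in the uncentred values. The stretches and the centring were both taken from these same differences, and most stretches were of higher values. The many rises inside the stretches, and the smaller share of rises after either step, thus follow from that choice and are no separate results. Of the 150 called differences of 1 or more, 135 were in genes outside the stretches, which make up 92.7% of all genes. Whether the shifts reflect DNA copy number was not tested.

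Within the longest stretch, the 6 brightest called genes the naming rule took were Ptms, Lpcat3, Mlf2, Sec13, Ybx3 and Atp6v1e1. Ybx3, an RNA-binding cold-shock protein, stood at 12.41 and 12.42 in the hIAPP samples, against 11.96 and 12.08 in the control samples, a difference of 0.39 (SE 0.0626, adjusted p = 0.0047). Mlf2 stood at 12.49 and 12.52 in the hIAPP samples, against 12.18 and 12.16 in the control samples, a difference of 0.34 (SE 0.0464, adjusted p = 0.00237). In both genes the hIAPP samples lay above the control samples, and both calls ended once genes were centred on their neighbours (adjusted p = 0.254 for Ybx3 and 0.241 for Mlf2). On chromosome 16, Gas6, the ligand of the TAM receptor kinases, stood at 11.88 and 11.87 in the hIAPP samples, against 11.01 and 10.91 in the control samples, a difference of 0.92 (SE 0.0528, adjusted p = 3.89e-05), the chromosome having a median of 0.27. Tll1, a metalloprotease of the tolloid family that processes procollagen, rose by 0.81 (SE 0.0496, adjusted p = 5.02e-05) and Slc7a2, a carrier of cationic amino acids, by 0.63 (SE 0.0484, adjusted p = 0.000155); both hIAPP samples lay above both control samples in each. Members of the stretches that went against their neighbours included Cacna2d3, a calcium channel subunit on chromosome 16, at 9.46 and 9.43 in the hIAPP samples, against 10.32 and 10.40 in the control samples, and Plac8 on chromosome 14, at 11.32 and 11.23 in the hIAPP samples, against 10.23 and 10.19 in the control samples. Cacna2d3 fell by 0.92 (SE 0.0529, adjusted p = 3.89e-05), and Plac8 rose by 1.06 (SE 0.0639, adjusted p = 4.72e-05).

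Many genes that fold proteins in the ER or remove misfolded ones from it were higher in hIAPP. Of the 29 ER chaperones and folding enzymes measured, 14 rose (48.3%) and 0 fell (median 0.16, against −0.01 over all genes). Of 20 genes of ER-associated degradation 9 rose (45%) and 0 fell (median 0.14). Genes at or above the median level rose in 16.2% and fell in 11.9% of cases. Rises of degradation genes numbered 5 without control a and 5 without control b. Earlier results of these data had shown both groups to be raised, and against rIAPP their medians were −0.03 and 0.02. The promoters of these genes were therefore read for the ER stress element, a sequence bound by NF-Y together with ATF6 or XBP1. The promoters of 5 of the genes that rose are shown because they carry the element, in capitals where it reads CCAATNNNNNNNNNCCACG or its shorter form ATTGGNCCACG on either strand. They run from 250 bases before the start of the gene to 50 bases after it, 5′ to 3′ in the direction of the gene, and come from RefSeq on build GRCr8. Derl3 lies at chr20:12766416-12766715 (minus strand), Ero1b at chr17:92941432-92941731 (plus strand), Creld2 at chr7:121789134-121789433 (plus strand), Hyou1 at chr8:53602632-53602931 (plus strand) and Herpud1 at chr19:10614658-10614957 (minus strand).
Derl3: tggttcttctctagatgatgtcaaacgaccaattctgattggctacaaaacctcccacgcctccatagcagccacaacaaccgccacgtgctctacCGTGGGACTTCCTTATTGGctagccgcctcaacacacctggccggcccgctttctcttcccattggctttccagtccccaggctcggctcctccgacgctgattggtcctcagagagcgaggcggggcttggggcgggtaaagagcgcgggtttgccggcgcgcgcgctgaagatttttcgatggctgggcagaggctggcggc
Ero1b: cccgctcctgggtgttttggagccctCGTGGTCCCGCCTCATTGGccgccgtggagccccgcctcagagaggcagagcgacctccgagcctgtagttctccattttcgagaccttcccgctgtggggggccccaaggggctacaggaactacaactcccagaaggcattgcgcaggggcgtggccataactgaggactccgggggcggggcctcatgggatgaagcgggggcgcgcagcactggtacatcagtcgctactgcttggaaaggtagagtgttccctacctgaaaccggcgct
Creld2: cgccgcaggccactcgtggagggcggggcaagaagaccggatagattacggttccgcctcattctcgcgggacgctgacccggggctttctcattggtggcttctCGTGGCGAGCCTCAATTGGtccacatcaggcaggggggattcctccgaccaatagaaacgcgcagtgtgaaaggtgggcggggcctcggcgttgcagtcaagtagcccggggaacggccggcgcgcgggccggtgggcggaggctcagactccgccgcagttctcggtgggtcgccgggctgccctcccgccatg
Hyou1: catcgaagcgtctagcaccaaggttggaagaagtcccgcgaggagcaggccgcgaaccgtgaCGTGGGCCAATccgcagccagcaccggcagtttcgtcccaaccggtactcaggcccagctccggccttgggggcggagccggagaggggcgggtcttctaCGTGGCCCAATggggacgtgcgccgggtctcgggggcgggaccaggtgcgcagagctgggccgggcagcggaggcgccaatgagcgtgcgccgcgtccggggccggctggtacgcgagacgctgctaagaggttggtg
Herpud1: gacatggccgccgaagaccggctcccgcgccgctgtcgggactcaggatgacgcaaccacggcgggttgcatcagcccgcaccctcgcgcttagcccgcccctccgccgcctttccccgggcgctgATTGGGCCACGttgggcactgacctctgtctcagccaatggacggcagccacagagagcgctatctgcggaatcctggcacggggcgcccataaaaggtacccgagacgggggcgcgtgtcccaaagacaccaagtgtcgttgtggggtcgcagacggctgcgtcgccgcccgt

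In Derl3 the element began 154 bases before the start of the gene, in Ero1b 224 and in Creld2 145 bases before it. The shorter form began 124 bases before the start in Herpud1 and at 2 places, 188 and 88 bases before it, in Hyou1. Derl3, Ero1b, Creld2 and Hyou1 held it on the strand opposite to the gene. Another Hyou1 promoter, at chr8:53602822-53603121, held neither form. In the gene counts that follow, a gene was counted if any of its promoters held a form. Either form was found in 39 of 33469 promoters of this length, or 0.117%, and in 29 of the 14564 measured genes with a promoter (0.199%). Of the 25 ER chaperones with a promoter 9 held one (36%), and of the 16 degradation genes 2 did (12.5%). Of the 29 genes, 11 rose in hIAPP and 1 fell: 8 of the 11 on an ER list rose, and 3 of the 18 on neither (16.7%). Both ER lists were already known to be raised, so this split is a description and no test of the element. Among list members without the element 7 of 16 ER chaperones and 5 of 14 degradation genes rose. A match is a description of the letters and not a shown site.

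Derl3, which helps carry misfolded proteins out of the ER, stood at 9.97 and 10.14 in the hIAPP samples, against 8.01 and 8.09 in the control samples, a difference of 2.00 (SE 0.0664, adjusted p = 4.73e-06). Ero1b, the oxidase that drives disulfide formation in the ER of beta cells, stood at 11.97 and 11.90 in the hIAPP samples, against 10.52 and 10.79 in the control samples, a difference of 1.28 (SE 0.0842, adjusted p = 7.02e-05). Creld2, an ER-resident protein with disulfide isomerase activity, stood at 11.56 and 11.51 in the hIAPP samples, against 10.85 and 10.87 in the control samples, a difference of 0.67 (SE 0.0478, adjusted p = 0.000102). In all 3 genes both hIAPP samples lay above both control samples. Hyou1, an ER chaperone of the HSP70 family, stood at 12.30 and 12.29 in the hIAPP samples, against 11.75 and 11.72 in the control samples, a difference of 0.56 (SE 0.0463, adjusted p = 0.000216). Herpud1, an adaptor of the ER degradation complex, stood at 10.89 and 10.96 in the hIAPP samples, against 10.43 and 10.41 in the control samples, a difference of 0.50 (SE 0.0523, adjusted p = 0.000672). Against rIAPP these genes differed by 0.14 (Derl3), −0.23 (Ero1b), −0.03 (Creld2), −0.05 (Hyou1) and 0.06 (Herpud1), and none of the 5 passed the test there. Among the other list members with the element, Dnajc3 rose by 0.47, Dnajb11 by 0.39 and Hspa5, the chaperone BiP, by 0.21, while the differences of Canx (0.15, adjusted p = 0.0964), Hsp90b1 (0.14, 0.0862) and Calr (0.13, 0.116) did not pass. Genes outside the ER lists were chosen after their values were seen. Their rises were Prkcz (0.39), an atypical protein kinase C, Pan2 (0.26), a poly(A) nuclease subunit, and Rnf151 (0.19). The single fall was Ppm1l (−0.31), a phosphatase. The remaining genes outside the ER lists were not called, among them Xbp1 (−0.03, adjusted p = 0.72), which encodes a factor that binds the element.

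**Figure D3:**
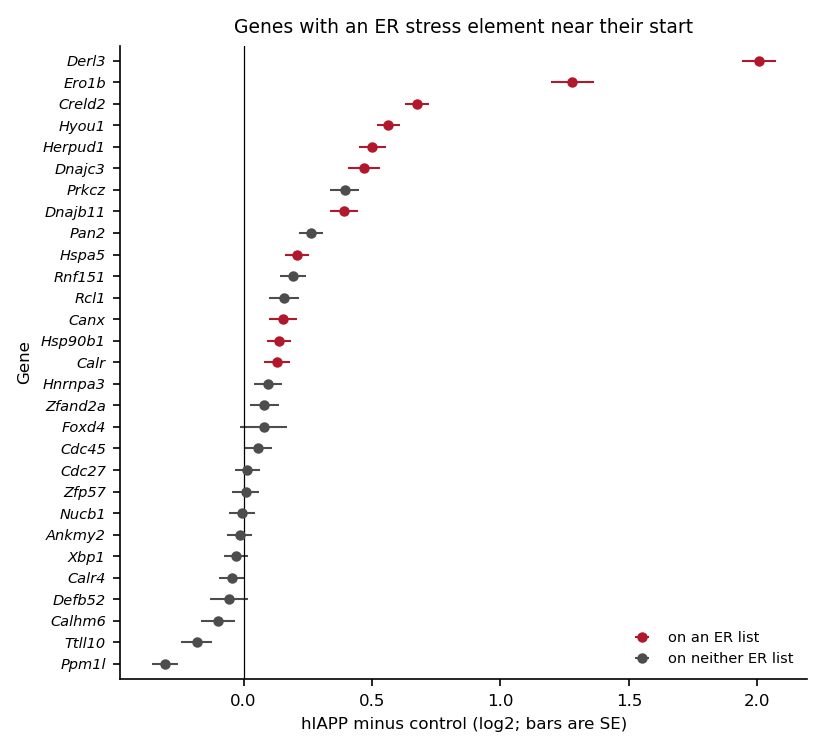
Difference, hIAPP minus control, in log2 units with its SE (horizontal axis) for the 29 measured genes with an ER stress element near their start (vertical axis); red points are on the ER chaperone or degradation list and grey points on neither. The ER list members lie from 0.13 to 2.00, and Ppm1l has the lowest value at −0.31.

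Fewer genes of entry into the secretory pathway and of transport out of the ER passed the test, 23.1% of the first list below and 21.6% of the second being higher, against 16.2% of genes at or above the median level. Of 39 genes of the ER translocon, signal peptidase and N-glycosylation, 9 rose and 0 fell (median 0.10), and 6 of the rises lay outside the stretches. The count of rises was 5 without hIAPP b, 3 without control a and 5 without control b. Magt1, a subunit of the complex that attaches N-glycans, stood at 11.45 and 11.33 in the hIAPP samples, against 10.89 and 10.89 in the control samples, a difference of 0.50 (SE 0.0576, adjusted p = 0.00103). Spcs3, a subunit of signal peptidase on chromosome 16, stood at 11.33 and 11.18 in the hIAPP samples, against 10.80 and 10.79 in the control samples, a difference of 0.46 (SE 0.0598, adjusted p = 0.00191), and centred on its neighbours it was no longer called (adjusted p = 0.202). The samples of the clones did not overlap in either gene. Of 37 genes of COPI and COPII vesicle coats and ER-Golgi transport, 8 rose and 1 fell (median 0.08), with 4 rises outside the stretches. Rises here numbered 2 without hIAPP a, 3 without hIAPP b, 3 without control a and 3 without control b. Bet1, a SNARE of ER-to-Golgi vesicles at the edge of a chromosome 4 stretch, stood at 10.88 and 10.80 in the hIAPP samples, against 10.21 and 10.24 in the control samples, a difference of 0.62 (SE 0.0531, adjusted p = 0.000268). Tmed9, a p24 cargo receptor, rose by 0.41 (SE 0.0576, adjusted p = 0.00272). The fall was in Copz2, a COPI coat subunit, at 9.51 and 9.47 in the hIAPP samples, against 10.16 and 10.09 in the control samples, a difference of −0.63 (SE 0.063, adjusted p = 0.000532).

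**Figure D4:**
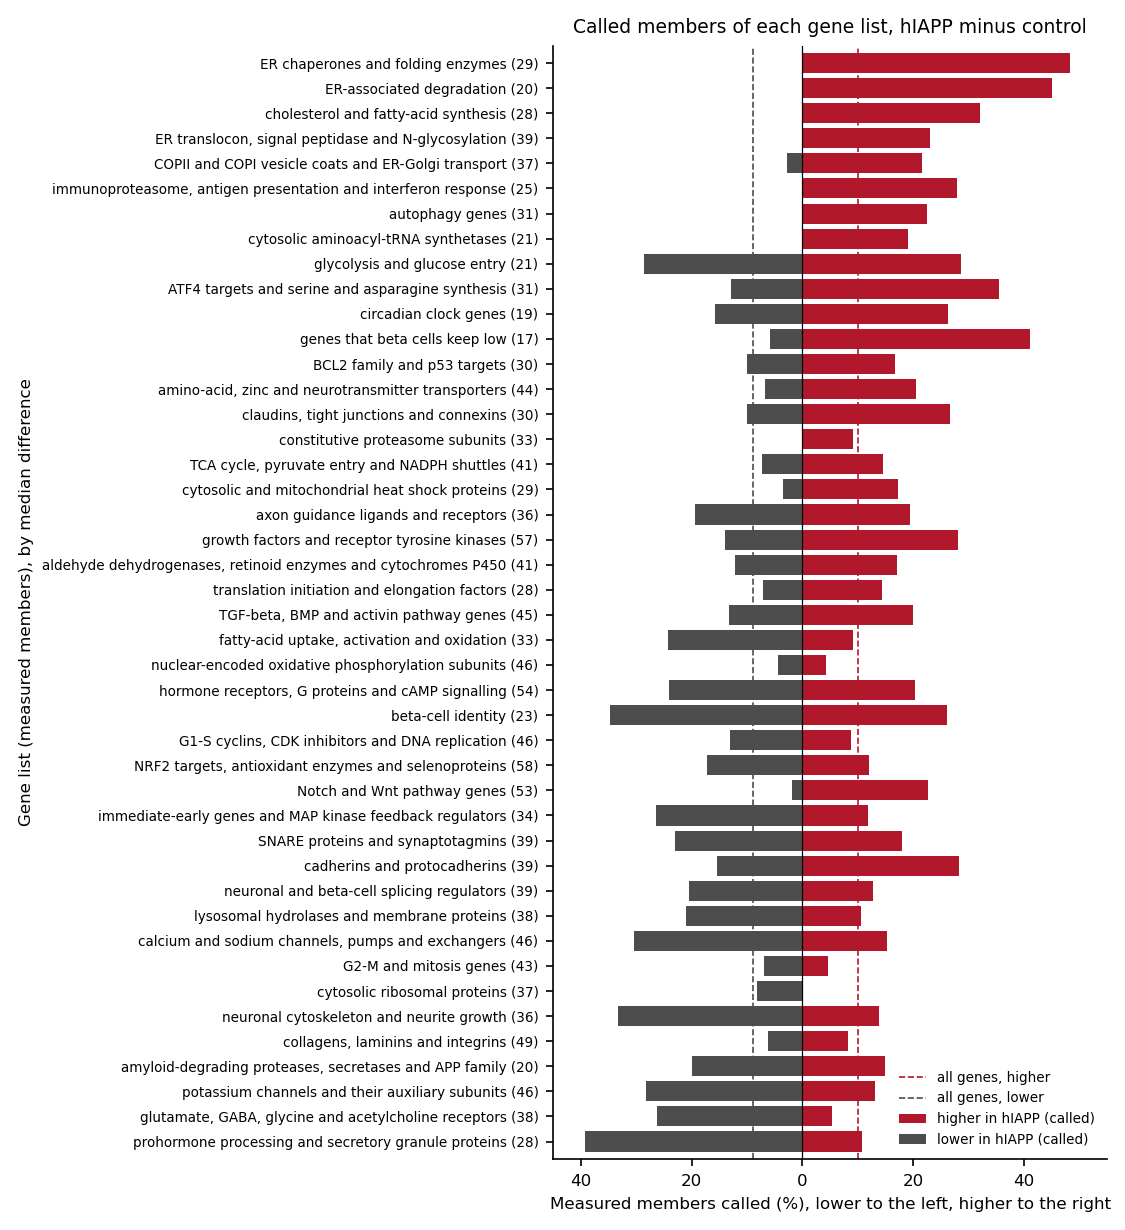
Share of the measured members of each gene list (vertical axis, number measured in brackets, ordered by median difference) called higher in hIAPP (red, to the right) or lower (grey, to the left), in percent; dashed lines are the shares over all genes, 10.1% higher and 8.93% lower. ER lists stand at the top with no falls, and secretory granule proteins at the bottom with 11 falls and 3 rises.

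Several cholesterol synthesis genes were higher in hIAPP. Of 28 genes listed under cholesterol and fatty-acid synthesis, 9 rose (32.1%) and 0 fell (median 0.13). Genes at or above the median level rose in 16.2% and fell in 11.9% of cases. Of the 9 rises 6 lay outside the stretches, and 5 were also higher than in rIAPP. The rises counted include Abcg1 (0.30), which encodes a sterol exporter and not an enzyme of synthesis. Hsd17b7, a reductase of late cholesterol synthesis, stood at 10.46 and 10.34 in the hIAPP samples, against 9.95 and 9.89 in the control samples, a difference of 0.48 (SE 0.0576, adjusted p = 0.0013) from control and of 0.54 from rIAPP (adjusted p = 0.00124). Fdft1, squalene synthase, stood at 12.37 and 12.31 in the hIAPP samples, against 11.96 and 12.04 in the control samples, a difference of 0.34 (SE 0.0523, adjusted p = 0.00391) from control and of 0.39 from rIAPP (adjusted p = 0.00359). In both genes the groups did not overlap. Msmo1 and Cyp51, demethylating enzymes of the same pathway, rose by 0.49 and 0.55 but lie in the stretches of chromosomes 16 and 4, and the call of Cyp51 ended when it was centred on its neighbours (adjusted p = 0.0639). The sterol regulatory element, searched as TCACNCCAC on both strands, was in 0 of the 21 members with a promoter and in 1.12% of the promoters of all measured genes.

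Lists of genes that break down protein differed in direction. Of 31 autophagy genes 7 rose (22.6%, against 16.2% of genes at or above the median level) and 0 fell (median 0.07). Rises of autophagy genes numbered 3 without hIAPP a, 4 without hIAPP b, 3 without control a and 4 without control b. Wipi1, which binds phosphoinositides on forming autophagosomes, stood at 11.18 and 11.23 in the hIAPP samples, against 10.61 and 10.66 in the control samples, a difference of 0.57 (SE 0.0498, adjusted p = 0.000301) from control and of 0.40 from rIAPP (adjusted p = 0.00265). Atg4c, a protease that processes ATG8 proteins, rose by 0.37 (SE 0.0661, adjusted p = 0.0073), and Atg7, the E1-like enzyme of autophagy in the long chromosome 4 stretch, by 0.41 (SE 0.0521, adjusted p = 0.00171). Centring on neighbours ended the call of Atg7 (adjusted p = 0.165). Of 38 lysosomal genes 4 rose (10.5%) and 8 fell (21%), with a median of −0.04. Of genes at or above the median level 11.9% fell. Lysosomal rises numbered 2 without hIAPP a and 2 without control a. Lysosomal falls numbered 4 without control a and 4 without control b. Lipa, the acid lipase, stood at 10.25 and 10.22 in the hIAPP samples, against 9.80 and 9.89 in the control samples, a rise of 0.39 (SE 0.0528, adjusted p = 0.00221). Granulin (Grn) stood at 12.77 and 12.77 in the hIAPP samples, against 13.13 and 13.10 in the control samples, a difference of −0.35 (SE 0.0504, adjusted p = 0.00312), and the galactosidase Glb1 fell by 0.31 (SE 0.0536, adjusted p = 0.00641).

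Proteases and partners of amyloid proteins were split. Of 20 measured genes 3 rose (15%) and 4 fell (20%). Bace2, a beta-cell aspartyl protease that cleaves amyloid precursor protein and TMEM27, stood at 11.59 and 11.56 in the hIAPP samples, against 10.39 and 10.48 in the control samples, a difference of 1.14 (SE 0.0549, adjusted p = 1.85e-05) from control and of 0.39 from rIAPP (adjusted p = 0.00422). Clu, clusterin, a secreted chaperone that binds amyloid, stood at 9.76 and 9.78 in the hIAPP samples, against 11.04 and 10.99 in the control samples, a difference of −1.25 (SE 0.0473, adjusted p = 7.36e-06), and the rIAPP clone differed from control by −1.30. Ace, a peptidase that can cleave amyloid beta, stood at 8.98 and 8.98 in the hIAPP samples, against 9.80 and 9.68 in the control samples, a difference of −0.76 (SE 0.0564, adjusted p = 0.000131). Bace2 was thus high, and Clu and Ace low, in both hIAPP samples. Of 29 cytosolic and mitochondrial heat shock genes 5 rose (17.2%) and 1 fell (3.45%). Among genes at or above the median level 16.2% rose and 11.9% fell. Heat shock rises numbered 3 without hIAPP a, 3 without control a and 3 without control b. Bag3, a cochaperone of HSP70 in selective autophagy, stood at 10.93 and 11.21 in the hIAPP samples, against 10.45 and 10.47 in the control samples, a difference of 0.61 (SE 0.0849, adjusted p = 0.0026), and Hspa12a, a distant HSP70 relative, fell by 0.84 (SE 0.089, adjusted p = 0.000704). Of 33 constitutive proteasome subunits 3 rose and 0 fell, a share below that of all genes, and leaving out any 1 array left 0 or 1 rise (0 without hIAPP a, control a or control b, and 1 without hIAPP b).

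The immunoproteasome and peptide loading genes were measured beside the constitutive subunits. Of 25 immunoproteasome, antigen presentation and interferon genes 7 rose (28%) and 0 fell, against 10.1% and 8.93% of all genes. In this list 13 were at or above the median level. Psmb8, an immunoproteasome subunit, stood at 10.03 and 9.96 in the hIAPP samples, against 8.86 and 8.75 in the control samples, a difference of 1.19 (SE 0.0579, adjusted p = 1.86e-05) from control and of 0.38 from rIAPP (adjusted p = 0.00651). Cxcl10, a chemokine induced by interferon, stood at 8.97 and 9.29 in the hIAPP samples, against 8.24 and 8.50 in the control samples, a difference of 0.76 (SE 0.116, adjusted p = 0.00387), although it lies in the chromosome 14 stretch of lower genes. Both hIAPP samples were above both control samples in each. Ifit3 (−0.10, adjusted p = 0.402), Rsad2 (0.20, 0.101) and Irf7 (−0.19, 0.0793), classic interferon-induced genes, were not called. The interferon-stimulated response element, searched as GAAANNGAAA on both strands, was in 13 of the 19 members with a promoter and in 3.66% of the promoters of all measured genes; 5 of the 13 rose, and 2 of the 6 without it did.

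Genes of the integrated stress response rose against control more often than they fell, and none rose against rIAPP. Of 31 ATF4 targets and genes of serine and asparagine synthesis, 11 rose (35.5%) and 4 fell (12.9%) against control. Over all genes 10.1% rose and 8.93% fell. Against rIAPP 0 of the 31 were higher (6.11% of all genes) and 6 lower (5.56%). Against control the rises numbered 6 without hIAPP a, 7 without hIAPP b, 6 without control a and 6 without control b. Against control the falls numbered 1 without hIAPP b, 1 without control a and 2 without control b. Slc6a9, a glycine transporter, stood at 10.33 and 10.33 in the hIAPP samples, against 9.80 and 9.84 in the control samples, a difference of 0.51 (SE 0.0471, adjusted p = 0.000378) from control and of −0.20 from rIAPP (adjusted p = 0.0362). Vldlr, a lipoprotein receptor, stood at 11.94 and 11.88 in the hIAPP samples, against 11.45 and 11.52 in the control samples, a difference of 0.42 (SE 0.0553, adjusted p = 0.00195) from control and of −0.29 from rIAPP (adjusted p = 0.016). Both genes were thus above control and below rIAPP. Ddit4, an inhibitor of mTORC1, rose by 0.44 (SE 0.0746, adjusted p = 0.00584) and Atf5, a transcription factor of the response, by 0.37 (SE 0.0548, adjusted p = 0.00317). Of 21 cytosolic tRNA synthetases 4 rose (19%, against 16.2% of genes at or above the median level) and 0 fell. Synthetase rises numbered 2 without hIAPP a, 2 without hIAPP b, 1 without control a and 1 without control b. Iars1, isoleucyl-tRNA synthetase on a chromosome 17 stretch, stood at 11.69 and 11.71 in the hIAPP samples, against 11.29 and 11.25 in the control samples, a difference of 0.43 (SE 0.0465, adjusted p = 0.000833).

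Secretory granule genes were more often lower than higher in hIAPP. Of 28 genes of prohormone processing and granule proteins, 11 fell (39.3%) and 3 rose (10.7%), with a median of −0.09. Genes at or above the median level fell in 11.9% and rose in 16.2% of cases. In the list 5 of the falls were also lower than in rIAPP, beside 2.93% of all genes. Granule falls numbered 7 without control a. Rab3b, a GTPase of secretory vesicles, stood at 9.49 and 9.47 in the hIAPP samples, against 10.95 and 11.03 in the control samples, a difference of −1.51 (SE 0.0527, adjusted p = 5.51e-06) from control and of −0.64 from rIAPP (adjusted p = 0.000392). Scg3, secretogranin III, which sorts cargo to granules, stood at 12.12 and 12.02 in the hIAPP samples, against 12.69 and 12.61 in the control samples, a difference of −0.58 (SE 0.0567, adjusted p = 0.000484) from control and of −0.39 from rIAPP (adjusted p = 0.00491). Qpct, the glutaminyl cyclase that caps peptide hormones, stood at 8.57 and 8.56 in the hIAPP samples, against 9.68 and 9.66 in the control samples, a difference of −1.11 (SE 0.0521, adjusted p = 1.67e-05). All 3 were low in both hIAPP samples. Sv2c, a vesicle glycoprotein, fell by 1.81 (SE 0.0604, adjusted p = 4.73e-06), with a difference of −0.02 from rIAPP, and Scg5, the chaperone of prohormone convertase 2, fell by 0.42 (SE 0.0569, adjusted p = 0.00229). The granule gene with the largest rise was Slc18a1, a vesicular monoamine transporter on chromosome 16, at 8.72 and 8.75 in the hIAPP samples, against 8.07 and 7.92 in the control samples, a difference of 0.74 (SE 0.0656, adjusted p = 0.000315).

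Beta-cell identity genes moved in both directions, 6 of 23 up (26.1%) and 8 down (34.8%). Genes at or above the median level rose in 16.2% and fell in 11.9% of cases. Identity falls numbered 4 without hIAPP a, 3 without control a and 5 without control b. The insulin genes were lower: Ins1 stood at 12.60 and 12.74 in the hIAPP samples, against 13.30 and 13.19 in the control samples, a difference of −0.57 (SE 0.0791, adjusted p = 0.00243). Ins2 stood at 12.23 and 12.64 in the hIAPP samples, against 13.28 and 13.06 in the control samples, a difference of −0.74 (SE 0.15, adjusted p = 0.0131), and its call ended without control a (adjusted p = 0.0818) or hIAPP a (0.0615). Rat Ins1 and Ins2 are close copies of each other, so probes may share their signal. Urocortin 3 (Ucn3), a peptide of mature beta cells that acts on delta cells, stood at 9.30 and 9.34 in the hIAPP samples, against 8.06 and 7.76 in the control samples, a difference of 1.41 (SE 0.094, adjusted p = 7.55e-05) from control and of 1.40 from rIAPP (adjusted p = 0.000149). Sytl4, granuphilin, which docks insulin granules, stood at 12.90 and 12.82 in the hIAPP samples, against 11.96 and 11.92 in the control samples, a difference of 0.92 (SE 0.052, adjusted p = 3.64e-05). The GLP-1 receptor gene Glp1r rose by 0.44 (SE 0.0462, adjusted p = 0.000704) and the transcription factor gene Tshz1 by 0.45 (SE 0.0493, adjusted p = 0.000839). Insulin was low and Ucn3, Sytl4, Glp1r and Tshz1 high in both hIAPP samples.

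Of 17 genes that beta cells normally keep low, 7 rose (41.2%) and 1 fell (5.88%), against 10.1% and 8.93% of all genes. The fall, in the thioesterase gene Acot7, was lost without hIAPP a, control a or control b. Oat, ornithine aminotransferase, stood at 10.87 and 10.86 in the hIAPP samples, against 10.04 and 10.14 in the control samples, a difference of 0.78 (SE 0.0527, adjusted p = 8.15e-05), and Slc2a1, the widely expressed glucose transporter GLUT1, stood at 11.09 and 11.10 in the hIAPP samples, against 10.52 and 10.69 in the control samples, a difference of 0.49 (SE 0.0639, adjusted p = 0.00195). Both were high in both hIAPP samples, and against rIAPP their differences were 0.10 and 0.06, neither called. Among 39 SNARE, synaptotagmin and active-zone genes 7 rose (18%) and 9 fell (23.1%), against 16.2% and 11.9% of genes at or above the median level. Exocytosis rises numbered 4 without hIAPP b, 4 without control a and 4 without control b. Exocytosis falls numbered 3 without hIAPP b, 4 without control a and 3 without control b. Syt9, a calcium sensor of insulin release in INS-1 cells, stood at 9.11 and 9.08 in the hIAPP samples, against 9.59 and 9.58 in the control samples, a difference of −0.49 (SE 0.0471, adjusted p = 0.000441) from control and of −0.46 from rIAPP (adjusted p = 0.00105). Syt11, a synaptotagmin that does not bind calcium, fell by 0.95 (SE 0.0521, adjusted p = 3.28e-05). Pclo, piccolo, a scaffold of release sites on a chromosome 4 stretch, stood at 11.81 and 11.81 in the hIAPP samples, against 10.96 and 10.92 in the control samples, a difference of 0.87 (SE 0.0463, adjusted p = 2.92e-05). Syt9 was thus low and Pclo high in both hIAPP samples.

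Against control, ion channel genes were more often called lower than higher in hIAPP. Of 46 potassium channel genes 13 fell (28.3%) and 6 rose (13.0%), with a median of −0.07. Over all genes 8.93% fell and 10.1% rose. Potassium channel rises numbered 3 without control a and 2 without control b. Potassium channel falls numbered 7 without control b. Compared with rIAPP 7 of the 46 were higher and 6 lower, and 4 of the falls were called against both other clones. Kcnh6, an ERG-type voltage-gated channel that takes part in beta-cell repolarisation, stood at 10.91 and 10.94 in the hIAPP samples, against 11.76 and 11.76 in the control samples, a difference of −0.84 (SE 0.0471, adjusted p = 3.61e-05) from control and of −0.76 from rIAPP (adjusted p = 0.000102). Kcnip3, a calcium-binding partner of A-type channels, stood at 11.63 and 11.59 in the hIAPP samples, against 12.65 and 12.68 in the control samples, a difference of −1.06 (SE 0.0478, adjusted p = 1.41e-05). Kcnma1, the large-conductance calcium-activated channel, fell by 0.50 (SE 0.0526, adjusted p = 0.000686). Kcnk16, the tandem-pore channel TALK-1 of beta cells, went the other way, at 9.57 and 9.76 in the hIAPP samples, against 8.38 and 8.24 in the control samples, a difference of 1.35 (SE 0.0817, adjusted p = 4.73e-05) from control and of 1.54 from rIAPP (adjusted p = 4.51e-05). Its samples, and those of the 3 lower genes, did not overlap between the clones.

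Of 46 calcium and sodium channel, pump and exchanger genes 14 fell (30.4%) and 7 rose (15.2%). Outside the stretches 13 fell and 3 rose. Among genes at or above the median level 11.9% fell and 16.2% rose. Compared with rIAPP 7 of the 46 were higher and 5 lower, and 2 of the falls were called against both other clones. Cacna1g, a low-voltage T-type calcium channel, stood at 10.49 and 10.63 in the hIAPP samples, against 11.09 and 11.17 in the control samples, a difference of −0.57 (SE 0.0619, adjusted p = 0.000833) from control and of −0.71 from rIAPP (adjusted p = 0.000519). Cacna2d2, an auxiliary calcium channel subunit, stood at 8.60 and 8.59 in the hIAPP samples, against 9.21 and 9.13 in the control samples, a difference of −0.58 (SE 0.051, adjusted p = 0.000314) from control and of −0.60 from rIAPP (adjusted p = 0.000463). Both genes were low in both hIAPP samples, whereas rIAPP differed from control by 0.14 and 0.03. Trpc4, a receptor-operated cation channel, fell by 1.38 (SE 0.0542, adjusted p = 7.99e-06) and Slc8a2, a sodium-calcium exchanger, by 0.91 (SE 0.0607, adjusted p = 7.65e-05). Trpm2, a cation channel opened by ADP-ribose and oxidants, stood at 10.37 and 10.23 in the hIAPP samples, against 8.52 and 8.33 in the control samples, a difference of 1.87 (SE 0.0774, adjusted p = 9.46e-06) from control and of 0.65 from rIAPP (adjusted p = 0.00204).

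Hormone receptor, G protein and cAMP genes were divided, 11 of 54 up (20.4%) and 13 down (24.1%). Genes at or above the median level rose in 16.2% and fell in 11.9% of cases. Receptor and cAMP rises numbered 7 without hIAPP a, 7 without hIAPP b and 7 without control a. Adcy8, a calmodulin-activated adenylyl cyclase of beta cells, stood at 10.00 and 9.95 in the hIAPP samples, against 8.92 and 8.80 in the control samples, a difference of 1.11 (SE 0.0651, adjusted p = 4.06e-05) from control and of 0.57 from rIAPP (adjusted p = 0.00169). Gpr119, a lipid-sensing receptor that raises cAMP in beta cells, stood at 12.44 and 12.44 in the hIAPP samples, against 13.16 and 13.13 in the control samples, a difference of −0.71 (SE 0.0459, adjusted p = 6.67e-05) from control and of −0.62 from rIAPP (adjusted p = 0.000223). Adcyap1r1, the PACAP receptor, stood at 8.35 and 8.31 in the hIAPP samples, against 9.44 and 9.46 in the control samples, a difference of −1.12 (SE 0.0615, adjusted p = 3.28e-05). Adcy8 was thus high, and both receptors low, in the hIAPP samples relative to control. The fall of Adcyap1r1 was larger in rIAPP (−1.50 from control), and hIAPP was above rIAPP by 0.39 (adjusted p = 0.00735). Gnat3, gustducin, stood far apart in the rIAPP clone: it stood at 11.38 and 11.31 in the hIAPP samples and 6.49 and 6.23 in the rIAPP samples, against 12.30 and 12.36 in the control samples. Its difference was −0.98 from control (SE 0.0838, adjusted p = 0.000257) and 4.99 from rIAPP (adjusted p = 4.72e-07).

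Against control, receptor and cytoskeleton genes known from neurons were more often called lower than higher in hIAPP. Of 38 glutamate, GABA, glycine and acetylcholine receptor genes 10 fell (26.3%) and 2 rose (5.26%), with a median of −0.08. Over all genes 8.93% fell and 10.1% rose. Of the 38, 11 were at or above the median level of all genes. Rises of receptor genes numbered 1 without hIAPP b and 1 without control b. Compared with rIAPP 4 of the 38 were higher and 5 lower. Gabrg3, a GABA-A receptor subunit, stood at 10.55 and 10.44 in the hIAPP samples, against 11.59 and 11.53 in the control samples, a difference of −1.06 (SE 0.0556, adjusted p = 2.68e-05). Grik2, a kainate receptor subunit, stood at 8.50 and 8.45 in the hIAPP samples, against 9.06 and 9.19 in the control samples, a difference of −0.65 (SE 0.0621, adjusted p = 0.000436) from control and of −0.48 from rIAPP (adjusted p = 0.00301). Both lay lower in both hIAPP samples. Of 36 genes of the neuronal cytoskeleton and neurite growth 12 fell (33.3%) and 5 rose (13.9%). Among genes at or above the median level 11.9% fell and 16.2% rose. Neurite gene rises numbered 3 without hIAPP a, 2 without hIAPP b and 2 without control a. Compared with rIAPP 8 of the 36 were higher and 1 lower, and 1 of the falls was called against both other clones. Cntn1, contactin 1, a neuronal adhesion molecule, stood at 9.09 and 9.05 in the hIAPP samples, against 10.00 and 10.04 in the control samples, a difference of −0.95 (SE 0.0574, adjusted p = 4.78e-05). Dclk1, a microtubule-binding kinase, fell by 0.68 (SE 0.0534, adjusted p = 0.000169) from control but was higher than in rIAPP, by 0.27 (adjusted p = 0.0183). Dpysl5, a collapsin response mediator, went the other way, at 11.94 and 11.98 in the hIAPP samples, against 11.05 and 11.13 in the control samples, a difference of 0.87 (SE 0.0509, adjusted p = 4.1e-05) from control and of 0.52 from rIAPP (adjusted p = 0.000898).

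Its relative Dpysl3 stood at 9.88 and 9.77 in the hIAPP samples and 8.11 and 8.03 in the rIAPP samples, against 10.22 and 10.24 in the control samples. Its difference was −0.41 from control (SE 0.0572, adjusted p = 0.00248) and 1.75 from rIAPP (adjusted p = 4.75e-06). Among 36 axon guidance genes 7 rose and 7 fell (19.4% each), against 10.1% and 8.93% of all genes. Guidance falls numbered 4 without hIAPP a and 4 without control a. Epha5, an ephrin receptor found on beta cells, stood at 9.36 and 9.27 in the hIAPP samples, against 7.96 and 7.98 in the control samples, a difference of 1.35 (SE 0.0574, adjusted p = 1.07e-05). Sema3d, a secreted semaphorin on a chromosome 4 stretch, stood at 9.24 and 9.19 in the hIAPP samples, against 8.18 and 8.32 in the control samples, a difference of 0.97 (SE 0.0638, adjusted p = 7.02e-05), and Unc5c, a netrin receptor, fell by 0.63 (SE 0.0506, adjusted p = 0.000189). Epha5 and Sema3d were high in both hIAPP samples. Of the 12 neuron and glia markers, 1 fell (Rbfox3) and 0 rose, and their log2 levels summed to 100.4 and 100.7 in the hIAPP samples, against 101.7 and 102.1 in the control samples.

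Against control, genes of developmental signalling were more often called higher than lower in hIAPP. Of 53 Notch and Wnt pathway genes 12 rose (22.6%) and 1 fell (1.89%), against 10.1% and 8.93% of all genes. Of these rises 10 lay outside the stretches, although the median of the list was −0.03. Notch and Wnt falls numbered 2 without hIAPP a, 2 without hIAPP b, 0 without control a and 0 without control b. Compared with rIAPP 3 of the 53 were higher and 6 lower, and 3 of the rises were called against both other clones. Notch1, a receptor of the Notch pathway, stood at 9.57 and 9.63 in the hIAPP samples, against 8.62 and 8.64 in the control samples, a difference of 0.97 (SE 0.0483, adjusted p = 2.11e-05) from control and of 0.35 from rIAPP (adjusted p = 0.00384). Its target Hes1, a transcriptional repressor, stood at 8.74 and 8.71 in the hIAPP samples, against 7.83 and 8.14 in the control samples, a difference of 0.74 (SE 0.0924, adjusted p = 0.00154), and 0.08 from rIAPP (adjusted p = 0.667). Ror1, a receptor of WNT5A, stood at 9.73 and 9.81 in the hIAPP samples, against 7.995 and 8.25 in the control samples, a difference of 1.65 (SE 0.091, adjusted p = 3.28e-05) from control and of 0.97 from rIAPP (adjusted p = 0.000736). All 3 were high in both hIAPP samples. Of 45 genes of the TGF-beta, BMP and activin pathways 9 rose (20%) and 6 fell (13.3%). Compared with rIAPP 4 of the 45 were higher and 6 lower. Bmp1, a protease that releases TGF-beta ligands and processes procollagen, fell by 0.59 (SE 0.0612, adjusted p = 0.000676), and the ligand Bmp3, in the chromosome 14 stretch, by 0.76 (SE 0.0502, adjusted p = 7.33e-05).

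Of 57 growth factors and receptor tyrosine kinases 16 rose (28.1%) and 8 fell (14.0%), against 10.1% and 8.93% of all genes. Growth factor falls numbered 5 without hIAPP a. Compared with rIAPP 10 of the 57 were higher and 9 lower. Ret, the receptor of GDNF family ligands in the long chromosome 4 stretch, stood at 11.31 and 11.35 in the hIAPP samples, against 10.29 and 10.23 in the control samples, a difference of 1.07 (SE 0.0494, adjusted p = 1.6e-05). Pdgfc, a platelet-derived growth factor, stood at 9.52 and 9.50 in the hIAPP samples, against 8.06 and 7.80 in the control samples, a difference of 1.58 (SE 0.0965, adjusted p = 4.96e-05) from control and of 1.79 from rIAPP (adjusted p = 4.81e-05). Igfbp2, which binds insulin-like growth factors, stood at 7.46 and 7.59 in the hIAPP samples, against 9.15 and 9.27 in the control samples, a difference of −1.68 (SE 0.0644, adjusted p = 7.36e-06), whereas Igfbp3, of the same family, rose by 1.15 (SE 0.0653, adjusted p = 3.73e-05). Ret and Pdgfc were thus high, and Igfbp2 low, in both hIAPP samples. Ngfr, the low-affinity neurotrophin receptor, rose by 1.83 (SE 0.0745, adjusted p = 9.01e-06) and differed by −0.17 from rIAPP, which was not called. Immediate-early and MAP kinase feedback genes fell from control more often than they rose: 9 of 34 fell (26.5%) and 4 rose (11.8%). Immediate-early rises numbered 2 without hIAPP b and 2 without control a. Compared with rIAPP 5 of the 34 were higher and 6 lower. Jun, the AP-1 subunit, stood at 8.73 and 8.52 in the hIAPP samples, against 10.20 and 10.21 in the control samples, a difference of −1.58 (SE 0.0711, adjusted p = 1.41e-05) from control and of −1.13 from rIAPP (adjusted p = 0.000109). Junb, of the same family, fell by 0.66 (SE 0.0603, adjusted p = 0.000364), Dusp8, a phosphatase of JNK and p38, by 0.85 (SE 0.065, adjusted p = 0.000155) and Egr1 by 0.51 (SE 0.0621, adjusted p = 0.00139).

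Adhesion genes moved in both directions. Of 39 cadherins and protocadherins 11 rose (28.2%) and 6 fell (15.4%), against 10.1% and 8.93% of all genes. In this list 6 of the rises were also higher than in rIAPP, beside 3.45% of all genes. Cadherin falls numbered 3 without control a and 2 without control b. Fat4, a giant cadherin of planar polarity, stood at 8.71 and 8.56 in the hIAPP samples, against 7.36 and 7.37 in the control samples, a difference of 1.27 (SE 0.0703, adjusted p = 3.28e-05) from control and of 0.82 from rIAPP (adjusted p = 0.000477). Pcdh9, a protocadherin, stood at 9.25 and 9.26 in the hIAPP samples, against 8.03 and 8.08 in the control samples, a difference of 1.19 (SE 0.0498, adjusted p = 9.72e-06) from control and of 0.67 from rIAPP (adjusted p = 0.000225). Cdh11 stood at 8.26 and 8.18 in the hIAPP samples, against 8.94 and 8.98 in the control samples, a difference of −0.73 (SE 0.0521, adjusted p = 0.000104). Fat4 and Pcdh9 were high, and Cdh11 low, in both hIAPP samples. Of 30 claudin, tight junction and connexin genes 8 rose (26.7%) and 3 fell (10%), with 6 rises also against rIAPP. Junction rises numbered 4 without hIAPP a, 5 without control a and 4 without control b. Junction falls numbered 1 without hIAPP a. Esam, an adhesion molecule of tight junctions, stood at 10.71 and 10.66 in the hIAPP samples, against 9.91 and 9.88 in the control samples, a difference of 0.80 (SE 0.0486, adjusted p = 4.92e-05) from control and of 0.57 from rIAPP (adjusted p = 0.00047). Of 49 collagens, laminins and integrins 4 rose (8.16%) and 3 fell (6.12%), both shares below those of all genes. In this list 8 were at or above the median level. Matrix falls numbered 5 without control b. Itga1, a collagen-binding integrin, stood at 7.19 and 7.23 in the hIAPP samples, against 8.84 and 8.71 in the control samples, a difference of −1.56 (SE 0.0628, adjusted p = 9.01e-06).

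Metabolic genes changed member by member. Of 21 genes of glycolysis and glucose entry 6 rose and 6 fell (28.6% each). Glycolysis falls numbered 2 without hIAPP a, 3 without hIAPP b and 2 without control b. Pfkfb3, which makes the activator of phosphofructokinase, fell by 0.43 (SE 0.0528, adjusted p = 0.00142). Of 41 genes of the TCA cycle, pyruvate entry and shuttles 6 rose (14.6%) and 3 fell (7.32%). Both shares were below those of genes at or above the median level, 16.2% and 11.9%. TCA rises numbered 2 without control a and 2 without control b. TCA falls numbered 1 without hIAPP b and 1 without control a. Pc, pyruvate carboxylase, a main entry of pyruvate in beta cells, stood at 10.04 and 10.10 in the hIAPP samples, against 9.45 and 9.53 in the control samples, a difference of 0.58 (SE 0.0534, adjusted p = 0.000385). Gpd1, of the glycerol phosphate shuttle, stood at 11.59 and 11.59 in the hIAPP samples, against 12.37 and 12.20 in the control samples, a difference of −0.70 (SE 0.0647, adjusted p = 0.000378). Pc was high, and Pfkfb3 and Gpd1 low, in both hIAPP samples. Of 46 oxidative phosphorylation subunits 2 rose and 2 fell, both shares below those of all genes. Respiratory chain falls numbered 0 without hIAPP a, 1 without hIAPP b, 0 without control a and 0 without control b.

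Of 33 genes of fatty-acid uptake, activation and oxidation 8 fell (24.2%) and 3 rose (9.09%). Genes at or above the median level fell in 11.9% and rose in 16.2% of cases. Fatty-acid gene falls numbered 5 without control a and 5 without control b. Cpt1a, which brings fatty acids into mitochondria, stood at 10.06 and 10.07 in the hIAPP samples, against 10.44 and 10.50 in the control samples, a difference of −0.40 (SE 0.0521, adjusted p = 0.00188), and Eci1, an isomerase of beta-oxidation, fell by 0.63 (SE 0.0612, adjusted p = 0.000494). The rises were in genes of storage and activation: Plin2, a lipid droplet coat protein, stood at 8.73 and 8.81 in the hIAPP samples, against 8.03 and 8.11 in the control samples, a difference of 0.70 (SE 0.0561, adjusted p = 0.00019) from control and of 0.64 from rIAPP (adjusted p = 0.000515), and the acyl-CoA synthetases Acsl3 and Acsl1 rose by 0.59 and 0.50, the last on chromosome 16. Redox genes were mixed, 7 of 58 up (12.1%) and 10 down (17.2%). Redox falls numbered 6 without hIAPP a, 6 without control a and 6 without control b. Nqo1, a quinone reductase and target of NRF2, stood at 9.17 and 9.19 in the hIAPP samples, against 7.53 and 7.84 in the control samples, a difference of 1.495 (SE 0.0917, adjusted p = 5.02e-05), and Nfe2l2, which encodes NRF2, rose by 0.51 (SE 0.0498, adjusted p = 0.000486). Txnip, a thioredoxin inhibitor that glucose induces, stood at 11.14 and 11.25 in the hIAPP samples, against 12.11 and 12.12 in the control samples, a difference of −0.92 (SE 0.0539, adjusted p = 4.06e-05). Nqo1 was high and Txnip low in both hIAPP samples, and neither was called against rIAPP (0.23 and 0.10).

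Of 46 genes of G1-S control and replication 4 rose (8.70%) and 6 fell (13.0%). Of 43 G2-M and mitosis genes 2 rose (4.65%) and 3 fell (6.98%), both shares below those of genes at or above the median level (16.2% and 11.9%). G1-S falls numbered 3 without hIAPP a, 3 without hIAPP b, 3 without control a and 3 without control b. Mitosis rises numbered 0 without hIAPP b, 1 without control a and 1 without control b. Mitosis falls numbered 1 without hIAPP a, 0 without hIAPP b, 0 without control a and 0 without control b. Cdkn1a, the cell cycle inhibitor p21, stood at 10.33 and 10.46 in the hIAPP samples, against 9.77 and 9.77 in the control samples, a difference of 0.63 (SE 0.057, adjusted p = 0.000359) from control and of 0.32 from rIAPP (adjusted p = 0.0115). Cdk6, a G1 kinase on a chromosome 4 stretch, stood at 8.59 and 8.58 in the hIAPP samples, against 7.82 and 7.86 in the control samples, a difference of 0.75 (SE 0.0761, adjusted p = 0.000591). Both were high in both hIAPP samples. BCL2 family and p53 target genes gave 5 rises (16.7%) and 3 falls (10%) among 30, near the shares of genes at or above the median level. Survival gene rises numbered 3 without hIAPP b and 3 without control b. Survival gene falls numbered 0 without hIAPP a, 1 without control a and 0 without control b. Bcl2, which blocks apoptosis, stood at 9.59 and 9.49 in the hIAPP samples, against 8.98 and 9.06 in the control samples. Its difference was 0.52 from control (SE 0.059, adjusted p = 0.00102) and −0.60 from rIAPP (adjusted p = 0.000867). In rIAPP Bcl2 thus rose more, by 1.12 from control. Tp53inp1, a p53 target of stress and autophagy, rose by 0.63 in hIAPP (SE 0.0478, adjusted p = 0.000143).

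Many differences from control did not separate hIAPP from the other transfected clone. Against rIAPP 2120 genes were called (11.7%), and 1158 genes (6.37%) were called against both control and rIAPP in the same direction, 626 higher (3.45%) and 532 lower (2.93%). These comparisons share the hIAPP arrays. Against rIAPP the calls numbered 935 with array a of rIAPP left out, 923 with its array b left out, 1387 without hIAPP a and 1266 without hIAPP b. Calls against both numbered 575 when array a of rIAPP was left out and 559 when its array b was, and they numbered 769 without hIAPP a and 749 without hIAPP b. The genes that follow were taken by the smaller of their differences, after leaving out the 10 largest rises and falls against control.

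Fam151a stood at 9.74 and 9.33 in the hIAPP samples, against 7.73 and 7.68 in the control samples, a difference of 1.82 (SE 0.122, adjusted p = 7.65e-05) from control and of 1.52 from rIAPP (adjusted p = 0.000361). Gcnt3, a mucin-type glycosyltransferase, stood at 8.92 and 8.71 in the hIAPP samples, against 7.32 and 7.22 in the control samples, a difference of 1.54 (SE 0.0903, adjusted p = 4.06e-05) from control and of 1.58 from rIAPP (adjusted p = 6.59e-05). Card6, which takes part in NF-kappaB signalling, stood at 7.17 and 7.16 in the hIAPP samples, against 5.61 and 5.79 in the control samples, a difference of 1.47 (SE 0.0659, adjusted p = 1.41e-05) from control and of 1.41 from rIAPP (adjusted p = 2.85e-05). In each, both hIAPP samples lay above all 4 samples of the other clones. Grpr, the receptor of gastrin-releasing peptide, stood at 9.13 and 9.09 in the hIAPP samples, against 7.67 and 7.74 in the control samples, a difference of 1.41 (SE 0.0707, adjusted p = 2.17e-05) from control. Abtb2 rose by 1.32 (SE 0.0546, adjusted p = 9.46e-06), and Zfp9 and Clec2gl1, both in the long chromosome 4 stretch, rose by 1.51 and 1.80. Pdgfc, Ucn3 and Kcnk16, given above, complete the 10 rises.

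**Figure D5:**
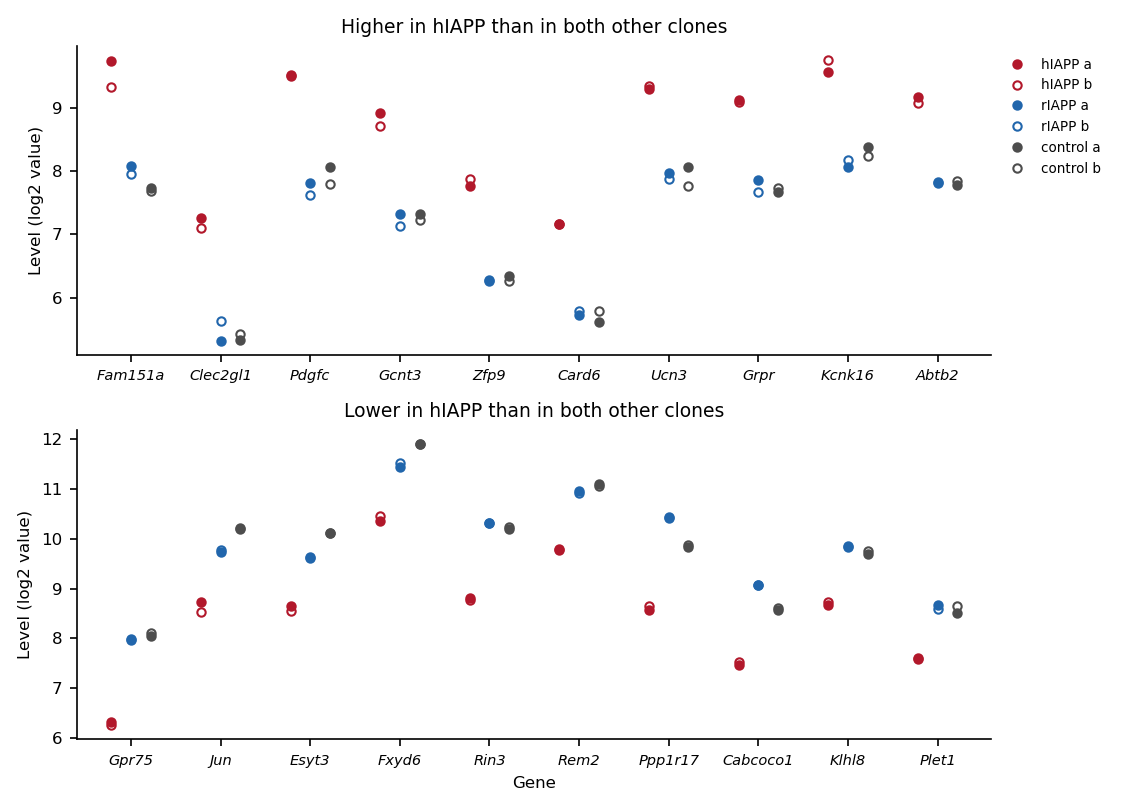
Level of each array (vertical axis, log2 value) for 10 genes higher (top) and 10 genes lower (bottom) in hIAPP than in both other clones (horizontal axis); red circles are hIAPP, blue circles rIAPP and grey circles control, filled for sample a and open for sample b. In every gene shown the hIAPP circles lie apart from the other 4.

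Among the falls, Gpr75, an orphan receptor, stood at 6.33 and 6.27 in the hIAPP samples, against 8.04 and 8.12 in the control samples, a difference of −1.78 (SE 0.0521, adjusted p = 3.43e-06) from control and of −1.68 from rIAPP (adjusted p = 4.75e-06). Rem2, a small GTPase that restrains voltage-gated calcium channels, stood at 9.77 and 9.79 in the hIAPP samples, against 11.10 and 11.05 in the control samples, a difference of −1.29 (SE 0.0486, adjusted p = 7.36e-06) from control and of −1.15 from rIAPP (adjusted p = 1.96e-05). Fxyd6, a regulator of the sodium pump, stood at 10.35 and 10.46 in the hIAPP samples, against 11.90 and 11.89 in the control samples, a difference of −1.49 (SE 0.0568, adjusted p = 7.36e-06) from control and of −1.07 from rIAPP (adjusted p = 4.51e-05). The hIAPP samples lay below all 4 other samples in each. Rin3, an exchange factor of RAB5, fell by 1.42 (SE 0.0475, adjusted p = 4.73e-06), Esyt3, an ER-plasma membrane tether, by 1.51 (SE 0.0512, adjusted p = 4.93e-06), and Plet1 by 0.99. Cabcoco1 fell by 1.08. Klhl8, an adaptor of a ubiquitin ligase in the chromosome 14 stretch, fell by 1.03, and Jun, given above, and Ppp1r17 complete the 10.

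In 88 genes (0.484%) hIAPP and rIAPP were called against control in opposite directions; these contrasts share the control arrays. Tgfb2, a TGF-beta ligand, stood at 8.59 and 8.65 in the hIAPP samples and 6.34 and 6.42 in the rIAPP samples, against 7.54 and 7.56 in the control samples. It differed from control by 1.07 in hIAPP and by −1.17 in rIAPP. Ppp1r17, an inhibitor of protein phosphatases, stood at 8.58 and 8.65 in the hIAPP samples and 10.43 and 10.42 in the rIAPP samples, against 9.83 and 9.87 in the control samples. Tgfb2 was thus highest, and Ppp1r17 lowest, in the hIAPP clone, with the control between. Higher in hIAPP and lower in rIAPP were also Aldh1a1, a retinaldehyde dehydrogenase (0.70 and −0.61 from control), Pitpnc1, a phosphatidylinositol transfer protein (0.68 and −0.84), Plac8 (1.06 and −0.90) and Pxt1 (0.67 and −0.64). Lower in hIAPP and higher in rIAPP were Gabre, a GABA-A receptor subunit (−0.61 and 1.32), Pcdhb12, a clustered protocadherin with near copies (−0.80 and 0.79), and the COPI subunit Copz2 (−0.63 and 0.68).

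Below the largest changes, differences of less than 1 also included well-expressed genes. Among those whose higher mean was in the top 10% of all genes, St3gal1, a sialyltransferase, stood at 13.04 and 13.05 in the hIAPP samples, against 12.19 and 12.24 in the control samples, a difference of 0.83 (SE 0.0477, adjusted p = 3.87e-05) from control and of 0.40 from rIAPP (adjusted p = 0.00205). Ckmt1, mitochondrial creatine kinase, stood at 12.21 and 12.14 in the hIAPP samples, against 11.47 and 11.37 in the control samples, a difference of 0.75 (SE 0.0568, adjusted p = 0.000142), whereas Ckb, the cytosolic brain-type enzyme, stood at 10.65 and 10.71 in the hIAPP samples, against 11.62 and 11.64 in the control samples, a difference of −0.95 (SE 0.0482, adjusted p = 2.25e-05). The creatine kinases thus differed in opposite directions, and rIAPP differed from control by 0.87 and −1.15. Ammecr1 rose by 0.95 (SE 0.053, adjusted p = 3.52e-05), the adhesion molecule Alcam by 0.70 (SE 0.0631, adjusted p = 0.000342) and Slc16a14, a monocarboxylate transporter relative, by 0.71 (SE 0.0498, adjusted p = 9.3e-05). Tgfbi, a matrix protein induced by TGF-beta, stood at 10.67 and 10.60 in the hIAPP samples, against 11.62 and 11.61 in the control samples, a difference of −0.98 (SE 0.0626, adjusted p = 6.18e-05) from control and of −0.61 from rIAPP (adjusted p = 0.00105). Pim2, a survival kinase, fell by 0.84 (SE 0.0491, adjusted p = 4.06e-05), Mrc2, a collagen receptor, by 0.76 (SE 0.0479, adjusted p = 5.81e-05) and Wnk3, a kinase that regulates chloride transport, by 0.78 (SE 0.0477, adjusted p = 4.92e-05).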

How the data were processed

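Total RNA of 3 INS1E clones was measured on 1-colour Affymetrix rat arrays. The authors deposited log2 values per transcript cluster, made with Affymetrix Expression Console and RMA (background correction, quantile normalisation and probe summary) per the submitters' processing notes; the sources used here give neither their versions nor the array build. The values were used as deposited. Platform annotation named 18511 transcript clusters with 1 symbol, 575 with several and 17599 with none, and for a symbol with several clusters the brightest was kept. Low genes were not filtered. Such arrays have no count depth; their number limits the precision.

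Group means were fitted with limma 3.58.1 (R 4.3.3; lmFit and eBayes) to the 6 gene-level arrays together, with 3 residual and 4.39 prior degrees of freedom, tested on simulated data. A gene was called at an adjusted p under 0.05. The 50 gene lists held 1630 measured genes; they are described by counts and medians, with no test of a list. The members and lists were chosen with earlier results of these data known. Genes named are, by rule, Iapp, up to 6 called members of each list, moderate changes of bright genes, genes called against both other clones, the brightest called genes of the longest stretch and genes called in opposite directions in hIAPP and rIAPP; exceptions are stated. Gene order came from the GRCr8 annotation. Because the array build is not given, no gene coordinates are printed, and promoter positions are those of GRCr8. Exon-level values were not used. Alternatives were another spread estimate, other scalings, a minimum difference of 0.2, a replicate block, and leaving out each array.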

Additional observations from a re-analysis of the deposited data

How the results depend on the processing

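The counts of called genes kept within 1.5 times their value under array-median centring, the mean of all clusters of a symbol, an intensity trend, a restriction to bright genes, centring on neighbours, the hIAPP and control arrays alone and the replicate block. A minimum difference of 0.2 gave 912 calls for hIAPP minus control, 478 for hIAPP minus rIAPP and 248 for hIAPP against both, by its stricter construction. Leaving out each array gave 2001 to 2587 calls for hIAPP minus control (2874 without either rIAPP array), 923 to 1387 for hIAPP minus rIAPP (1780 without either control array) and 559 to 802 for hIAPP against both. Centring on neighbouring genes turned 9 named differences, to −0.0087 for Atp6v1e1, −0.064 for Cldn12, −0.22 for Ghrl, −0.035 for Glud1, −0.079 for Hspe1, −0.26 for Iapp, −0.014 for Lpcat3, −0.17 for Psmc2 and −0.061 for Sec13, each inside a stretch of higher genes. Deviations of arrays with the same letter correlated at −0.0408, 0.000376 and 0.000643 between clones. Such values cannot show whether arrays of the same letter shared a culture, day or batch, which the labels do not say. With the letter as a replicate block there were 3118 calls for hIAPP minus control and 1802 for hIAPP minus rIAPP. Of 294 called genes that were named, 117 lost their call at the minimum difference, and between 35 and 57 lost it without a given hIAPP or control array. Signals near the floor and the top of an array are compressed, which limits the differences that can be detected there.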

Other observations

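Neuronal splicing factors were among the genes lower in hIAPP than in control. Of 39 neuronal and beta-cell splicing regulators 8 fell (20.5%) and 5 rose (12.8%), against 11.9% and 16.2% of genes at or above the median level. Splicing factor rises numbered 2 without hIAPP a, 2 without control a and 3 without control b. Splicing factor falls numbered 5 without hIAPP a and 5 without control b. Rbfox3, which binds exons of neuronal transcripts, stood at 9.56 and 9.55 in the hIAPP samples, against 10.26 and 10.34 in the control samples, a difference of −0.74 (SE 0.0499, adjusted p = 7.8e-05). Celf4 stood at 10.20 and 10.22 in the hIAPP samples, against 10.76 and 10.62 in the control samples, a difference of −0.48 (SE 0.0579, adjusted p = 0.00129). Both were low in both hIAPP samples, and rIAPP differed from control by −1.21 and −0.81. Compared with rIAPP 7 of the 39 regulators were higher in hIAPP and 1 was lower. Among 44 amino-acid, zinc and neurotransmitter transporters 9 rose (20.45%) and 3 fell (6.82%), against 10.1% and 8.93% of all genes. Transporter rises numbered 5 without control a. The genes given next went against the more frequent direction. Slc1a5, a neutral amino-acid carrier, stood at 7.29 and 7.22 in the hIAPP samples, against 8.68 and 8.72 in the control samples. It differed by −1.45 (SE 0.0507, adjusted p = 5.51e-06). Slc7a14, a lysosomal relative of cationic carriers, fell by 1.89 (SE 0.0528, adjusted p = 3.01e-06).

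Of 41 aldehyde dehydrogenase, retinoid and cytochrome P450 genes 7 rose (17.1%) and 5 fell (12.2%), against 10.1% and 8.93% of all genes. Falls in this group were 2 without hIAPP a and 2 without control a. Crabp1, which binds retinoic acid, stood at 10.80 and 10.95 in the hIAPP samples, against 12.11 and 12.15 in the control samples, a difference of −1.25 (SE 0.0627, adjusted p = 2.12e-05), and Cyp2s1 rose by 0.91 (SE 0.0543, adjusted p = 4.54e-05) and was also higher than in rIAPP, by 0.67 (adjusted p = 0.000371). Of 19 circadian clock genes 5 rose (26.3%) and 3 fell (15.8%), against 16.2% and 11.9% of genes at or above the median level. Clock gene rises numbered 2 without hIAPP a, 2 without hIAPP b, 2 without control a and 2 without control b. Nfil3, a repressor of clock output, stood at 8.63 and 8.61 in the hIAPP samples, against 8.11 and 8.19 in the control samples, a difference of 0.47 (SE 0.0536, adjusted p = 0.00106). Of 28 translation factors 4 rose (14.3%) and 2 fell (7.14%), both shares below those of genes at or above the median level. Translation factor rises numbered 2 without hIAPP a and 2 without control a. Translation factor falls numbered 1 without hIAPP a, 1 without hIAPP b, 1 without control a and 1 without control b. Of 37 ribosomal proteins 0 rose and 3 fell, and their pseudogenes can share probes. Ribosomal protein falls numbered 0 without control a. Markers of other endocrine cells gave 1 rise (Gcg) and 2 falls (Gc and Etv1) among 12, each of which was lost when any 1 of the 4 arrays was left out. Leukocyte markers gave 2 rises, Cd4 in the long chromosome 4 stretch (0.78) and Csf1r, named after its value was seen. Leukocyte rises numbered 1 without hIAPP a, 1 without hIAPP b and 1 without control a. Thy1 was the 1 fall (−0.46) among fibroblast and endothelial markers, which gave 2 falls without control a.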
